A study of Mus musculus with 14 samples.

Results

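Neurons that release GABA, the main inhibitory transmitter of the brain, are described here through 6 genes of 35449 in the table: Gad1, Gad2 and Slc32a1 for making and packaging GABA, and Dlx1, Dlx2 and Dlx5 for the interneuron lineage. The 6 genes were named by symbol, their transcript counts were summed per gene, and they were followed in all 14 libraries. Each library came from 1 independent primary mouse cell line started from an embryo at E13.5, and no line was treated. The groups were 3 KO and 3 WT neurosphere lines from heads and 5 KO and 3 WT lines of embryonic fibroblasts (MEFs) from body tissue without internal organs. KO lines carry the targeted H3f3a allele that the title calls knockout-first in 1 of the genes for the histone variant H3.3, and WT lines are wild type. How many embryos or litters gave the lines is not given in the sources used here, so p-values measure the spread between these lines.

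GABA is made from glutamate by the enzymes GAD67, encoded by Gad1, and GAD65, encoded by Gad2. The vesicular transporter VGAT, encoded by Slc32a1, loads GABA into synaptic vesicles, which makes its transcript a mark of cells ready to release the transmitter. Dlx1, Dlx2 and Dlx5 encode homeodomain transcription factors of the ventral forebrain, where most cortical interneurons are born, and they also act in the limb, the jaw and the skeleton. Neurospheres are floating cultures of neural stem and precursor cells, and fibroblasts are connective tissue cells.

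Transcript 3′ ends were counted, and the library totals were 1669406 to 2693861 counts in KO neurospheres, 2020017 to 2874677 in WT neurospheres, 2080798 to 3030025 in KO MEFs and 2655360 to 3296178 in WT MEFs. Levels are given as CPM, counts scaled to library size with a correction for library composition. H3f3a, the targeted gene, had 26.2 to 70.7 CPM in KO neurospheres against 1964 to 2409 CPM in WT neurospheres, and 7.27 to 18.8 CPM in KO MEFs against 845 to 1420 CPM in WT MEFs. The 10 fibroblast genes listed as markers summed to 36.5 to 71.6 CPM in KO neurospheres, 54.2 to 160.3 CPM in WT neurospheres, 14553 to 22647 CPM in KO MEFs and 16667 to 19992 CPM in WT MEFs. The 10 neural stem and radial glia genes summed to 9392 to 13889 CPM in KO neurospheres, 8215 to 12755 CPM in WT neurospheres, 102 to 340 CPM in KO MEFs and 181 to 250 CPM in WT MEFs. These sums set the 2 labelled cell types apart in all 14 lines. The 10 genes listed as markers of neurons of any kind summed to 1370 to 1771 CPM in KO neurospheres, 1433 to 1584 CPM in WT neurospheres, 125 to 165 CPM in KO MEFs and 133 to 189 CPM in WT MEFs. Most of the neurosphere sum was Map2, a microtubule protein, at 1237 to 1457 CPM in KO and 1187 to 1436 CPM in WT neurospheres, while Snap25, a protein of synaptic release, had 0.698 to 4.79 CPM in KO and 0.709 to 5.73 CPM in WT neurospheres. Other genes of this list lay between them. Elavl4 had 66.3 to 217.4 CPM in KO and 13.0 to 75.9 CPM in WT neurospheres. Tubb3 had 12.9 to 70.7 CPM in KO and 16.3 to 43.2 CPM in WT neurospheres. Dcx had 3.49 to 30.5 CPM in KO and 2.48 to 22.1 CPM in WT neurospheres, and 0 in every MEF line. In such bulk libraries, fewer cells of a type and less RNA per cell cannot be told apart.

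5 of the 6 genes lie on chromosome 2 of the mouse genome (GRCm38, coordinates of GENCODE M21). Gad1 spans chr2:70553072-70602014 on the plus strand, Gad2 chr2:22622205-22693874 on the plus strand and Slc32a1 chr2:158610767-158615748 on the plus strand. Dlx1, at chr2:71528113-71533981 on the plus strand, and Dlx2, at chr2:71543408-71546754 on the minus strand, form a convergent pair. Dlx5 lies at chr6:6877805-6882085 on the minus strand. Gad1 and Dlx2 were the members that passed the test between cell types in both genotypes, in opposite directions, and their promoters from RefSeq (GRCm38.p6, 250 bases before to 50 after the start) are shown for that reason, 5′ to 3′ on the strand of the gene, with every CpG in capitals. The Gad1 window is chr2:70561879-70562178 on the plus strand and the Dlx2 window is chr2:71546705-71547004 on the minus strand.
Gad1: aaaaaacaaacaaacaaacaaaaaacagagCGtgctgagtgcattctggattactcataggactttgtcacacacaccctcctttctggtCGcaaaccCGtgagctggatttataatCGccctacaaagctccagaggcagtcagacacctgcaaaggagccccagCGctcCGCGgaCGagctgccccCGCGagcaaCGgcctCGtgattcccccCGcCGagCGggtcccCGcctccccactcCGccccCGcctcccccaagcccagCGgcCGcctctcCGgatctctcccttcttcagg
Dlx2: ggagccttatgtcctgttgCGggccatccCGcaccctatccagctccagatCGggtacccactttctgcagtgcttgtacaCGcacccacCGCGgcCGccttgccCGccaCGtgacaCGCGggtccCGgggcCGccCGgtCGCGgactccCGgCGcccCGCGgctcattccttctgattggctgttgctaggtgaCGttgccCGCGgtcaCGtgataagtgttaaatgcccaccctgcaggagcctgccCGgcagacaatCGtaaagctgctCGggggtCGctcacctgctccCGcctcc

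CpG pairs numbered 21 in the Gad1 window and 29 in the Dlx2 window. The median over 32807 promoters of the same length was 7, and 75.2% of them held fewer than Gad1 and 87.1% fewer than Dlx2. Promoters were found in the table for 5 of the 6 members, and the other windows held 14 CpG pairs in Gad2, 17 in Slc32a1 and 27 in Dlx1. A search on both strands for the homeodomain core TAATTA, held by 5.30% of all promoters, found none in the 5 windows. The E-box CAGCTG, held by 16.3% of all promoters, was also found in none of them. The TATA-box letters TATAAA stood once in the Gad1 window, on the strand opposite to the one printed, where it reads TTTATA in the printed run, and in none of the other windows, against 13.6% of all promoters. This match overlapped no other searched motif, and a missing match says only that these letters are not in the window.

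**Figure D1:**
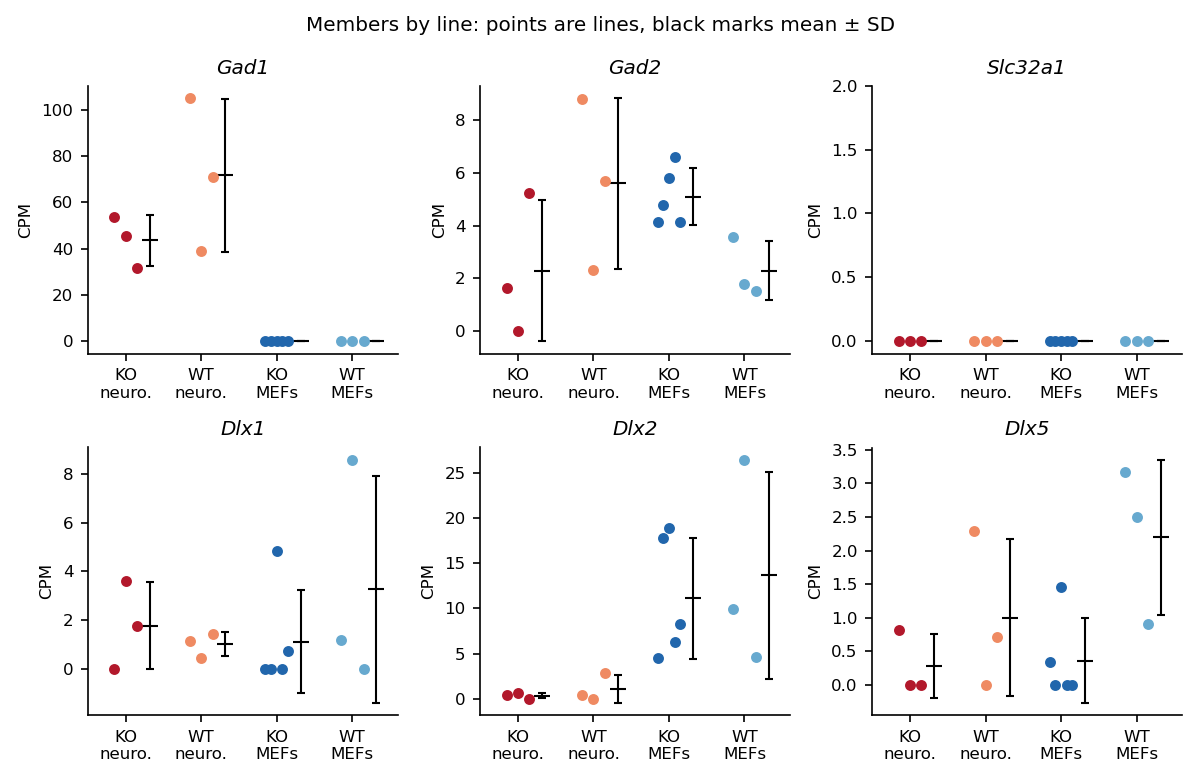
CPM of the 6 genes in each line, with 1 point per line and the mean ± SD of each group in black beside it; each panel has its own linear axis. Gad1 is at 31.8 to 105.0 CPM in the 6 neurosphere lines and at 0 in the 8 MEF lines, while Dlx2 reaches 4.48 to 26.5 CPM in MEF lines and at most 2.84 CPM in neurosphere lines.

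Gad1, the enzyme gene for most GABA in the cell body, was the member with clear signal in neurospheres and was at 0 in every MEF line. KO neurospheres 1, 2 and 3 had 130, 76 and 91 Gad1 counts, which are 53.5, 45.5 and 31.8 CPM. WT neurospheres 1, 2 and 3 had 275, 84 and 200 counts, which are 105.0, 39.1 and 70.9 CPM. The groups overlapped, since WT neurospheres 2 lay below the first and second KO lines. The 5 KO MEF and 3 WT MEF lines had 0 Gad1 counts, which allows up to 0.223 CPM over the KO MEF lines and 0.349 CPM over the WT MEF lines when a count of 0 is read as up to 3 counts. This allowance covers counting error only.

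Between cell types, Gad1 was at least 195-fold higher in KO neurospheres than in KO MEFs (adjusted p = 5.44e-05, edgeR quasi-likelihood test with Benjamini-Hochberg adjustment) and was higher in 3 of 3 KO neurosphere lines than in any KO MEF line. In the WT lines, Gad1 was at least 206-fold higher in neurospheres than in MEFs (edgeR adjusted p = 0.000678), again in 3 of 3 lines. These calls stand beside a common background: 51.6% of 11413 tested genes passed between KO neurospheres and KO MEFs, 25.4% higher and 26.2% lower. Between the WT cell types 41.6% of 11080 tested genes passed, 20.8% in each direction.

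Between genotypes, Gad1 averaged 43.6 ± 11.0 CPM in KO neurospheres and 71.7 ± 32.9 CPM in WT neurospheres (SD, n = 3 lines each). The log2 difference of KO over WT was -0.70 (SE 0.37, 95% interval -1.54 to 0.13, edgeR adjusted p = 0.999), smaller than the test could tell from the spread between lines. Leaving out each line in turn gave log2 differences of -0.99 to -0.34. The exact two-sided permutation test of log2 CPM gave p = 0.3, where 3 against 3 lines cannot give less than 0.1. Of 10624 genes tested between KO and WT neurospheres 1 passed, H3f3a itself, which is 0.00941%; 227 had an unadjusted p below 0.05, and DESeq2 called 7 genes. None of the members passed in this comparison by edgeR or DESeq2, and 2 of the 6, Gad1 and Gad2, had enough counts to be tested.

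**Figure D2:**
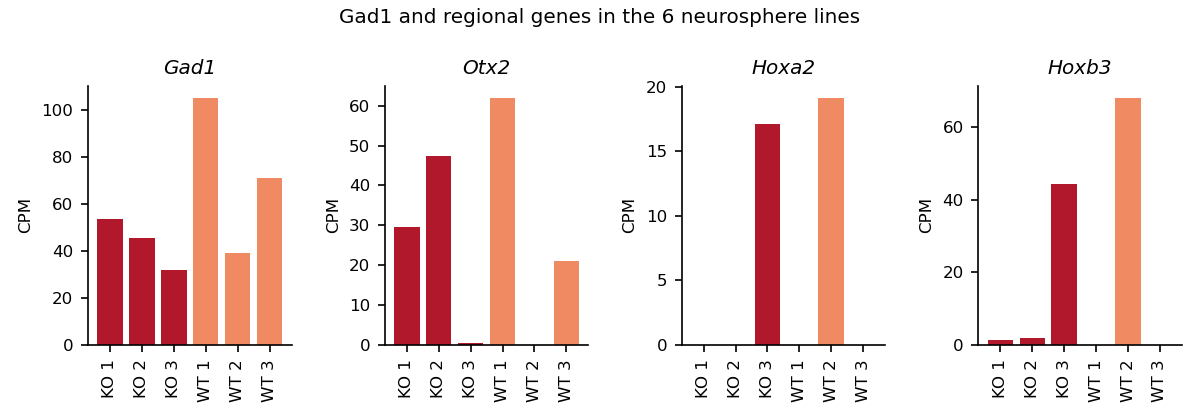
CPM of Gad1 and of 3 regional genes in each neurosphere line, KO lines in dark red left of WT lines in light red. KO neurospheres 3 and WT neurospheres 2, at 31.8 and 39.1 CPM, have the least Gad1 of their groups and are the lines with the most Hoxb3 and Hoxa2.

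Gad1 varied across neurosphere lines together with genes that mark brain regions. Otx2, a gene of forebrain and midbrain, was at 29.6 and 47.3 CPM in KO neurospheres 1 and 2 and at 61.8 and 20.9 CPM in WT neurospheres 1 and 3, against 0.349 CPM in KO neurospheres 3 and 0 in WT neurospheres 2. Hoxb3, a gene of the hindbrain and spinal cord, ran the other way, at 44.3 CPM in KO neurospheres 3 and 68.0 CPM in WT neurospheres 2, against at most 1.80 CPM in the other 4 lines. Hoxa2 was at 17.1 and 19.1 CPM in these same KO and WT lines and at 0 in the other 4. The line with the least Gad1 in each genotype was thus the line with Hoxa2, and the part of region in the Gad1 difference was not tested. Within the 4 lines with Hoxa2 at 0, both KO lines, at 53.5 and 45.5 CPM, had less Gad1 than both WT lines, at 105.0 and 70.9 CPM. This split followed values already seen and leaves out WT neurospheres 2, the line through which the groups overlapped. So few lines cannot tell a genotype difference from the spread between lines. Without KO neurospheres 3 and WT neurospheres 2 the log2 difference was -0.81 (edgeR adjusted p = 0.962).

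3 genes followed Gad1 most closely over the 6 neurosphere lines, by Pearson's r of log2 CPM among 10015 genes ranked. They were Pbrm1, a subunit of a SWI/SNF chromatin remodelling complex (r = 0.994, Spearman's rho = 1.0), Pard6g, a member of the PAR6 cell polarity family (r = 0.982, rho = 0.943), and Fam214a (r = 0.978, rho = 1.0). Pbrm1 was at 567, 550.3 and 496 CPM in KO neurospheres 1, 2 and 3 and at 681, 522 and 596 CPM in WT neurospheres 1, 2 and 3. Pbrm1 thus varied far less than Gad1 in relative terms. With KO neurospheres 3 and WT neurospheres 1 left out, r was 0.985 for Pbrm1, 0.932 for Pard6g and 0.967 for Fam214a. These values describe 6 lines, and the 3 genes were picked as the highest of 10015.

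**Figure D3:**
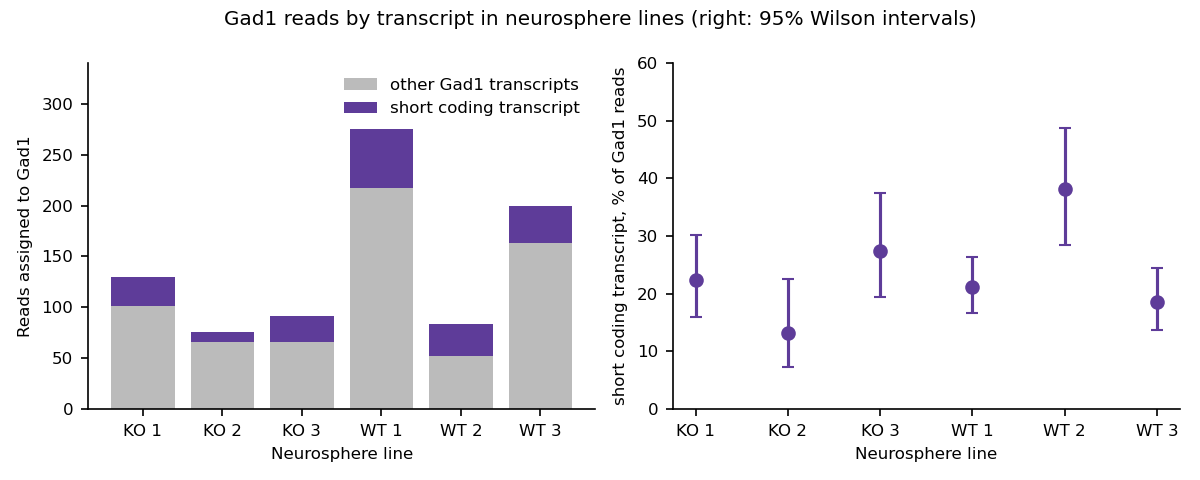
Left, reads that the deposited quantification assigned to Gad1 in each neurosphere line, split into the short coding transcript (purple) and other transcripts (grey); right, the share of the short transcript with its 95% Wilson interval, which covers counting error only. The share lies between 13.2% and 38.1%, and KO and WT lines overlap.

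Gad1 reads fell on 2 main transcripts with different 3′ ends. Gad1-201, which ends at position 70602014 and carries the whole coding sequence of 593 codons, took 233 reads over the KO neurosphere lines and 428 over the WT neurosphere lines. The other, a short form of 223 codons that ends upstream at position 70585121, took 64 reads over the KO and 127 over the WT neurosphere lines. Truncated Gad1 transcripts of this kind are known from the embryonic brain, where splicing keeps the enzyme from being made in full. The share of this short transcript among Gad1 reads was 22.3%, 13.2% and 27.5% in KO neurospheres 1, 2 and 3, against 21.1%, 38.1% and 18.5% in WT neurospheres 1, 2 and 3. The means were 21.0% ± 7.25 in KO and 25.9% ± 10.6 in WT neurospheres (SD, n = 3 lines each, exact two-sided permutation p = 0.7), and the groups overlapped. The highest share in each genotype belonged to the line with Hoxa2. None of the last 500 words of 31 bases of either transcript occurs in another gene, and Gad1 values were whole numbers in all 6 neurosphere lines within 0.001.

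Gad2, the enzyme gene for GABA made at nerve terminals, was low in every group. In KO neurospheres 1, 2 and 3 it had 1.65, 0 and 5.24 CPM, and in WT neurospheres 1, 2 and 3 it had 8.78, 2.33 and 5.67 CPM. In KO MEFs it ranged from 4.13 to 6.58 CPM with a median of 4.79 CPM, and WT MEFs 1, 2 and 3 had 3.56, 1.79 and 1.52 CPM. All 5 KO MEF lines lay above all 3 WT MEF lines, while the neurosphere groups overlapped.

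The Gad2 log2 difference of KO over WT MEFs was 1.15 (SE 0.44, 95% interval 0.17 to 2.14, unadjusted p = 0.0266, edgeR adjusted p = 1), so it did not pass. The means were 5.09 ± 1.08 CPM in KO MEFs (SD, n = 5) and 2.29 ± 1.11 CPM in WT MEFs (SD, n = 3). An exact permutation test of log2 CPM gave a two-sided p of 0.0179, unadjusted and 1 of 19 such tests of the members, and no split of 5 and 3 lines can go lower. 1 of 10785 genes tested between KO and WT MEFs passed, again H3f3a, which is 0.00927%; 175 had an unadjusted p below 0.05, and DESeq2 called 1. In neurospheres the Gad2 log2 difference of KO over WT was -1.14 (SE 0.91, 95% interval -3.22 to 0.94, edgeR adjusted p = 0.999), with -2.54 to -0.67 when single lines were left out. Without KO neurospheres 3 alone it was -2.54, without KO neurospheres 2 it was -0.67, without WT neurospheres 1 it was -0.70, and without KO neurospheres 3 and WT neurospheres 2 together it was -2.88 (edgeR adjusted p = 0.962). The difference between these genotype effects, neurospheres minus MEFs, was -2.33 for Gad2 (unadjusted p = 0.0418, edgeR adjusted p = 1), with -3.71, without KO neurospheres 3, to -1.84, without KO neurospheres 2, when single lines were left out. None of 12113 genes passed that test by edgeR, with 366 at an unadjusted p below 0.05, and DESeq2 called 3.

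Gad2 estimates differed from those of Gad1 in 1 respect. The deposited estimates were not whole numbers in 13 of the 13 lines with Gad2 reads, which arises where reads are divided among genes. The transcript that took them, Gad2-201, holds 114 words of 31 bases, or 2.00% of its words, that also occur in 1775 other genes, all between bases 2368 and 4969 and none in its last 500 words. Which reads lie there was not tested. Of the other members and Dlx6, only Dlx6 had such values, in 13 of 13 lines with reads. Between KO cell types the Gad2 log2 difference of neurospheres over MEFs was -0.999 (95% interval -2.57 to 0.57, edgeR adjusted p = 0.258), and it was -2.37 (adjusted p = 0.0369) without KO neurospheres 3.

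Slc32a1, the vesicular GABA transporter gene, had 0 counts in all 14 lines. Read as up to 3 counts per group, this allows up to 0.431 CPM in KO neurospheres, 0.395 CPM in WT neurospheres, 0.223 CPM in KO MEFs and 0.349 CPM in WT MEFs. At this depth a transcript of GABA release was thus not detectable in lines that carried 31.8 to 105.0 CPM of Gad1.

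**Figure D4:**
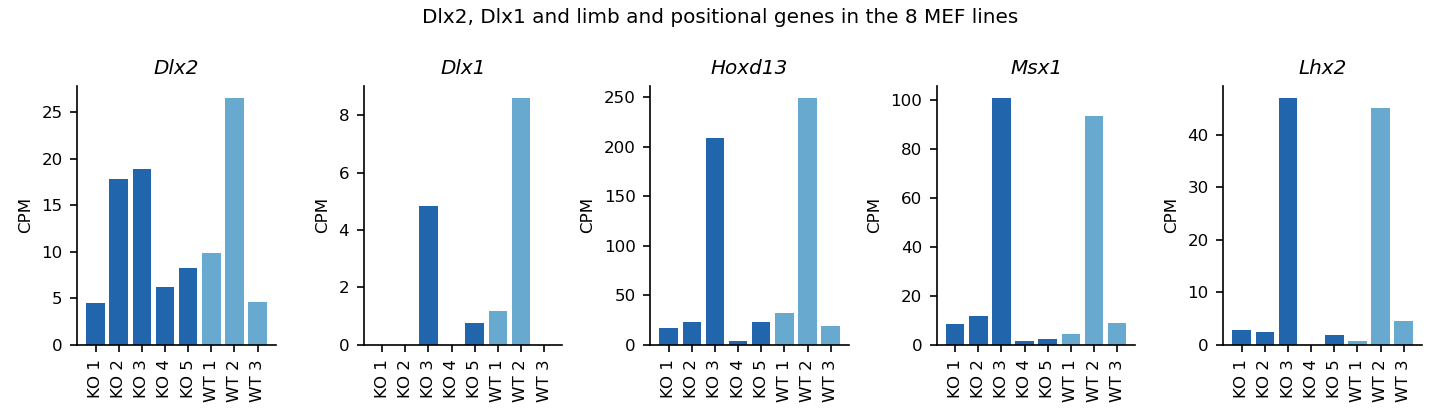
CPM of Dlx2, Dlx1 and 3 limb and positional genes in each MEF line, KO lines in dark blue left of WT lines in light blue. KO MEFs 3 and WT MEFs 2 are highest in their group for Hoxd13, Msx1 and Lhx2, and also for Dlx1 and Dlx2.

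Dlx2 was the DLX gene with the most counts in MEFs, at 4.48 to 18.9 CPM in KO MEFs with a median of 8.28 CPM. WT MEFs 1, 2 and 3 had 9.90, 26.5 and 4.56 CPM. In KO neurospheres 1, 2 and 3 it had 0.412, 0.599 and 0 CPM, and in WT neurospheres 1, 2 and 3 it had 0.382, 0 and 2.84 CPM. The MEF genotypes overlapped over most of their range, and every MEF line lay above every neurosphere line of its own genotype.

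Dlx2 was lower in KO neurospheres than in KO MEFs by a log2 difference of -5.00 (SE 0.90, 95% interval -7.02 to -2.98, edgeR adjusted p = 0.00138) in 3 of 3 lines. Over the groups, 2 Dlx2 counts in KO neurospheres against 144 in KO MEFs make a 37.3-fold lower level relative to library size, with a 95% counting interval of 10.1- to 311-fold. Between WT cell types the log2 difference of Dlx2 was -3.49 (SE 1.04, 95% interval -5.92 to -1.07, edgeR adjusted p = 0.0305), with 9 counts in neurospheres against 114 in MEFs. Leaving out WT MEFs 1, WT MEFs 2, WT neurospheres 1 or WT neurospheres 2 ended this call, with edgeR adjusted p of 0.0607, 0.0718, 0.104 and 0.076, and without WT MEFs 2 the log2 difference was -2.60. Without WT neurospheres 3, which held 8 of the 9 neurosphere counts, it was -5.72 (edgeR adjusted p = 0.0191). Between genotypes in MEFs the log2 difference was -0.31 (SE 0.64, 95% interval -1.74 to 1.13, edgeR adjusted p = 1), and it was 0.63 without WT MEFs 2. No direction can be drawn from that value.

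Dlx1, the neighbour of Dlx2, was sparse, with 0, 0, 10, 0 and 2 counts in KO MEFs 1 to 5 and 3, 24 and 0 counts in WT MEFs 1 to 3. Its neurosphere counts were 0, 6 and 5 in KO neurospheres 1, 2 and 3 and 3, 1 and 4 in WT neurospheres 1, 2 and 3. KO MEFs 3, at 4.84 CPM, and WT MEFs 2, at 8.59 CPM, held most of the Dlx1 of the MEFs, and no other MEF line exceeded 1.19 CPM. All 58 Dlx1 reads were assigned to the retained-intron transcript Dlx1-203, which shares its 3′ end with the coding transcript, so the split between these transcripts is an estimate. Dlx1 did not pass the filter on low counts in any comparison over all lines, and its exact two-sided permutation p between KO and WT MEFs was 0.5.

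Both lines rich in Dlx1 also stood apart in limb and positional genes. Hoxd13, a gene of the distal limb, had 208.6 CPM in KO MEFs 3 and 248.8 CPM in WT MEFs 2, against 4.15 to 22.96 CPM in the other KO MEF lines and 19.5 to 32.5 CPM in the other WT MEF lines. Msx1, a homeobox gene of limb mesenchyme, had 101 and 93.4 CPM in these lines, and Lhx2 had 47.0 and 45.1 CPM. Their part in the Dlx values was not tested. KO MEFs 2 departed from that pattern, with 17.8 CPM of Dlx2 and 22.9 CPM of Hoxd13.

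Dlx5, which acts in forebrain and bone, was at or near its floor in most lines. KO MEFs 1 to 5 had 1, 0, 3, 0 and 0 counts, against 8, 7 and 3 counts in WT MEFs 1, 2 and 3. KO neurospheres 1, 2 and 3 had 2, 0 and 0 counts, against 6, 0 and 2 in WT neurospheres 1, 2 and 3. The means were 0.359 ± 0.629 CPM in KO MEFs (SD, n = 5) and 2.20 ± 1.16 CPM in WT MEFs (SD, n = 3), with an exact two-sided permutation p of 0.0536, and the groups overlapped at KO MEFs 3. Dlx5 was also removed by the filter on low counts in each comparison over all lines. Other family members were as sparse: Dlx3 had 3 counts in KO MEFs and 5 in WT MEFs and 0 in neurospheres, and Dlx4 had 3 counts in WT MEFs and 0 elsewhere. Dlx6, the partner of Dlx5, averaged 3.40 ± 1.69 CPM in KO and 5.94 ± 3.19 CPM in WT neurospheres, at a log2 difference of -0.79 (edgeR adjusted p = 0.999). Of 8 transcripts in the DLX list, 6 were listed in the files. Only 1 of them was tested in each genotype comparison, Dlx6 in neurospheres and Dlx2 in MEFs, and neither passed.

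Across the 4 groups, Gad1 was ordered WT neurospheres, KO neurospheres and then both MEF groups, and the neurosphere neighbours did not differ beyond their spread. Dlx2 was ordered WT MEFs, KO MEFs, WT neurospheres and KO neurospheres, with no difference beyond the spread within either cell type. For Gad2 the KO MEF lines lay above the WT MEF lines without overlap, a difference that did not pass the edgeR test. The other Gad2 neighbours overlapped, as did all groups for Dlx1.

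**Figure D5:**
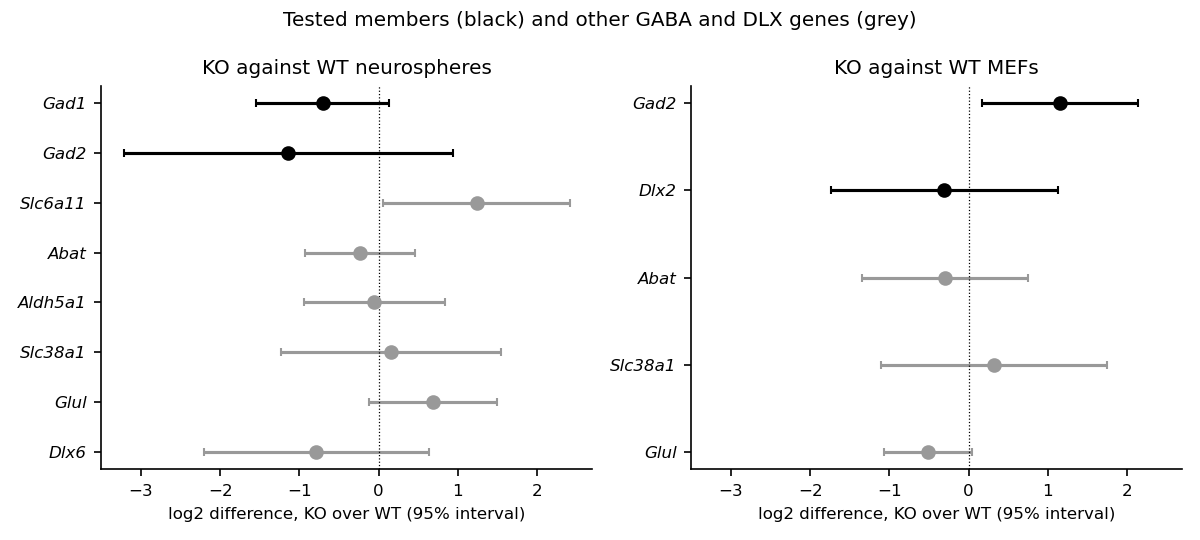
Log2 differences of KO over WT with 95% intervals from the edgeR test, in neurospheres (left) and MEFs (right), for tested members in black and 5 other GABA genes and Dlx6, where tested, in grey. Of those shown, only Gad2 in MEFs and Slc6a11 in neurospheres have intervals that leave out 0, and neither passed after adjustment over all genes.

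The genes that handle GABA showed a wide difference between cell types and no called difference between genotypes. Of the 11 genes of GABA synthesis, packaging, uptake and breakdown, including Gad1, Gad2 and Slc32a1, 8 were tested between KO cell types, 7 were higher in neurospheres and 1 did not pass. 7 were tested between WT cell types, of which 6 were higher and 1 did not pass. Over all genes tested, 25.4% were higher between KO cell types and 20.8% between WT cell types. A gene could be tested through counts in 1 cell type alone. The median log2 difference of the tested list genes, with genes at 0 in MEFs set to their lower bound, was 4.98 for KO and 4.65 for WT cells, against -0.01 and 0.02 over all genes tested. Slc6a11, which encodes the glial transporter GAT-3, averaged 941 ± 359 CPM in KO and 404 ± 225 CPM in WT neurospheres, and 0.0753 CPM in KO and 0.477 CPM in WT MEFs. Abat, the enzyme that breaks GABA down, was higher in neurospheres by log2 4.70 in KO (edgeR adjusted p = 2.36e-05) and 4.65 in WT cells (edgeR adjusted p = 7.29e-05). None of the 8 tested list genes passed between KO and WT neurospheres by edgeR, with a median log2 difference of 0.05 against 0.01 over all genes, and none of 4 passed between KO and WT MEFs. Slc6a11 was at a log2 difference of 1.24 between KO and WT neurospheres (SE 0.51, unadjusted p = 0.0419, edgeR adjusted p = 0.999).

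Some GABA receptor genes were present in neurospheres too. Of the 22 genes listed, 9 were at 0 in all KO neurosphere lines and 7 in all WT neurosphere lines. Of 22 genes of receptor subunits and their anchor, 7 were tested between KO cell types, 5 were higher and 1, Gabrb1, was lower. 7 were tested between WT cell types, 5 were higher and none was lower. Over all genes tested, 25.4% were higher and 26.2% lower between KO cell types, and 20.8% went each way between WT cell types. Gabra2, an alpha subunit, averaged 140.2 ± 143 CPM in KO and 114.8 ± 62.3 CPM in WT neurospheres against 0.269 CPM in KO and 0.962 CPM in WT MEFs. Gphn, which encodes the anchoring protein gephyrin, was higher by log2 1.79 in KO (edgeR adjusted p = 4.56e-05) and 2.06 in WT cells (edgeR adjusted p = 0.000813). The median log2 difference of the 7 tested genes was 1.79 in KO and 2.06 in WT cells, against -0.01 and 0.02 over all genes tested. A receptor gene could be tested through counts in 1 cell type alone, and the medians leave out the untested genes. No gene of the list passed between genotypes by edgeR in either cell type.

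Of 27 transcription factors of the subpallium and of interneurons, including Dlx1, Dlx2 and Dlx5, 18 were tested between KO cell types, with 9 higher in neurospheres and 4 lower, and 16 between WT cell types, with 6 higher and 2 lower. Prox1, a homeobox factor of some interneurons, averaged 258 CPM in KO and 160 CPM in WT neurospheres, and 1.14 CPM in KO and 1.90 CPM in WT MEFs. Foxp1, a forkhead factor, was lower in neurospheres by a log2 difference of -2.27 in KO (edgeR adjusted p = 0.00469) and -2.96 in WT cells (edgeR adjusted p = 0.00108). The median log2 difference of the tested list was 0.92 for KO and 0.47 for WT cells, against -0.01 and 0.02 over all genes tested. Over all genes 51.6% passed in KO and 41.6% in WT cells, and the WT count of this list lies near that share. Of 16 genes of interneuron subtypes and migration, 5 were tested between KO cell types, with 2 higher and 1 lower, and 4 between WT cell types, with 2 higher and 1 lower. The median log2 difference of these tested genes was 3.13 for KO and 1.20 for WT cells, against -0.01 and 0.02 over all genes tested. Here and for the transcription factors, a gene could be tested through counts in 1 cell type alone. The medians leave out the untested genes and do not describe the whole lists. With so few genes tested, the KO count is also near the share of 51.6% over all genes. Erbb4, a neuregulin receptor of migrating interneurons, averaged 121.4 ± 58.4 CPM in KO and 96.7 ± 45.8 CPM in WT neurospheres, and had 2 and 0 counts over the KO and WT MEF lines. The lower gene in both comparisons was Cck, at least 33.8-fold lower in KO neurospheres and at a log2 difference of -5.46 in WT cells. Penk was not tested between cell types and lies outside the medians of its list. It was at 0 in every neurosphere line and had 1781 CPM in KO MEFs 3 and 5420 CPM in WT MEFs 2. None of the 5 pathway lists had a gene that passed between genotypes. Of 9 genes of neurons with other transmitters, none had enough counts to be tested.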

How the data were processed

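Per the labels' protocols, libraries of RNA 3′ ends were made with QuantSeq (forward kit). The deposited files hold expected counts (estimated read numbers) per transcript and TPM, made by the authors with Salmon 1.1.0 per the submitters' processing notes, which also name edgeR. For the transcript set, build and mapping options, nothing is given in the sources used here. Of 116945 transcripts, 115560 matched GENCODE M21 with version and length and 385 otherwise. The 1000 unmatched ones held 0.251% to 0.425% of reads and were left out. Expected counts were summed per gene and rounded.

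Comparisons were fitted one at a time in R 4.3.3 by edgeR 4.0.16 (TMM normalisation, default filter on low counts, robust quasi-likelihood test, Benjamini-Hochberg adjustment over all tested genes, threshold 0.05). The interaction used all 14 libraries. Exact permutation tests used scipy 1.17.1 and log2 CPM with a prior count of 2. DESeq2 1.42.0, limma 3.58.1 on the deposited TPM (log2, pseudocount 1), filters, normalisation, a block and left-out lines were alternatives. Members, lists and naming rules were chosen with earlier results of these data known. List genes were named when they passed, up to 4 each way, or by highest level; Snap25, the regional and limb genes, Dlx3 and Dlx4 were named after their values were seen. Some list genes are not reported here by name. On simulated counts with the neurosphere genotype design 54% of 4-fold and 2% of 2-fold changes were found, and with the MEF genotype design 80% and 15%. False calls numbered 7 and 6 in these designs. Changes were placed only in genes above a minimum mean level, which Gad2, Dlx1 and Dlx5 did not reach in either cell type. Dlx2 did not reach it in neurospheres, so the shares found do not cover these cases.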

Additional observations from a re-analysis of the deposited data

Results flagged for a closer look

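Among 7 groups of values large enough to be examined for a line far from the others, 2 stood out, both in KO MEFs 3. Its Dlx1 level was 4.84 CPM, against 0.753 CPM in the next KO MEF line. Its Dlx5 level was 1.45 CPM, against 0.344 CPM in the next KO MEF line. These levels rest on 10 and 3 counts beside lines at 0. The cut-off used was made for normally distributed values, so how often chance marks counts this sparse is not known. Gad1 and Slc32a1, among the 7 groups, were at 0 in every KO MEF line and could not stand out.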

How the results depend on the processing

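Of 173 alternative values of member log2 differences, 161 kept their direction and side of the threshold. The count of members called between WT neurospheres and WT MEFs was 2, and it was 1 with a stricter filter (at least 20 counts), with a replicate block, without WT neurospheres 2 and WT MEFs 2, and 1 to 2 when single lines were left out. Dlx2 accounts for this in the block (log2 -3.33, adjusted p = 0.0831), and without both lines (-2.09, adjusted p = 0.101). Same-numbered KO and WT neurosphere lines deviated together with r of 0.12, -0.11 and 0.22, and same-numbered KO and WT MEF lines with r of 0.03, -0.26 and -0.59. So few values cannot settle whether replicate numbers pair the lines. The Dlx2 log2 difference of KO over WT MEFs reversed to 0.058 under the replicate block and to 0.37 without KO MEFs 3 and WT MEFs 2, and ranged from -0.72 to 0.63 with single lines left out. The Dlx2 interaction ranged from -2.40 to 0.72 with single lines left out. The cause of these changes was not tested. Over all genes, calls between KO and WT neurospheres numbered 1, with 7 by DESeq2, 2 without a filter, 3 without the lines that stood apart and 0 to 2 with single lines left out. For MEFs they were 1, with 0 under the block and 3 without those lines. Between KO cell types the block left 3295 calls of 5892. Depth limits Dlx1, Dlx5 and Gad2, where lines held 0 to 24 counts, Dlx2 in neurospheres, where they held 0 to 8, and Slc32a1, at 0 in all lines.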
